A study of Mus musculus with 12 samples.

Results

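The genes described here are those of Pdgf, Kit and Csf1 signalling, namely the receptors Pdgfra, Pdgfrb, Kit and Csf1r and the ligands Pdgfa, Pdgfb, Pdgfc, Kitl and Csf1. They were chosen by gene name in the array files, and they are 9 of the 34836 gene names and 15 of the 55681 probes on the arrays. All 9 genes had at least 1 probe that passed the filter on dim signal, and 13 of their 15 probes were among the 25940 tested. The arrays held RNA of mouse embryonic stem (ES) cells in 4 groups of 3 arrays each, all carrying Gata6-GR, a fusion of Gata6 with the ligand-binding domain of the glucocorticoid receptor that is activated by dexamethasone (Dex). The groups were Sox7+/- cells without Dex (Sox7+/- ES cells) and with Dex (Sox7+/- XEN-like cells), and Sox7-/- cells without Dex (Sox7-/- ES cells) and with Dex (Sox7-/- XEN-like cells), all at day 4. The Sox7+/- cells that serve as controls therefore also lack 1 Sox7 allele, and no group without Gata6-GR or with Dex but without Gata6-GR was analysed here. Per the study's methods, the Sox7-/- cells came from the Sox7+/- line by selection with a high dose of puromycin, so each genotype is 1 cell line, called the heterozygous and the null line below, and a difference between genotypes cannot be told apart from a difference between lines. XEN cells are the stem cells of the extraembryonic endoderm, the lineage that derives from the primitive endoderm of the blastocyst.

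Pdgfra, Pdgfrb, Kit and Csf1r are class III receptor tyrosine kinases, which dimerize when a dimeric ligand binds and then phosphorylate each other on tyrosines that dock adaptors, kinases and phosphatases. Pdgfra binds Pdgfa, Pdgfb and Pdgfc, and Pdgfrb binds mainly Pdgfb. Kit is the receptor for Kitl (stem cell factor), and Csf1r is the receptor for Csf1 and Il34, best known from macrophages. Pdgfra marks the primitive endoderm and is used to maintain XEN cells, while Pdgfa is made by the neighbouring epiblast.

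The promoters of Pdgfra, Kit and Csf1 are shown because the first pair of genes rose with Dex in both genotypes and Csf1 was the ligand that was lower in Sox7-/- cells with and without Dex. Each sequence holds the 250 bases before the RefSeq start site on build GRCm38.p6, read 5′ to 3′ on the gene's strand. Capitals mark matches, on either strand, to ACAAT, the core of the motif bound by Sox factors, or GATAA, bound by Gata factors. Pdgfra lies at chr5:75152001-75152250 on the plus strand, the first of the Kit start sites at chr5:75574737-75574986 on the plus strand and Csf1 at chr3:107760470-107760719 on the minus strand.
Pdgfra: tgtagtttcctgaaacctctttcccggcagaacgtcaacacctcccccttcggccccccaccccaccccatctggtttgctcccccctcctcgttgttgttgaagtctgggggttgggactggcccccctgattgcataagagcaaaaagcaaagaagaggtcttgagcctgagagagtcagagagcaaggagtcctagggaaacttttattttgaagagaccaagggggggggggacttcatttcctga
Kit: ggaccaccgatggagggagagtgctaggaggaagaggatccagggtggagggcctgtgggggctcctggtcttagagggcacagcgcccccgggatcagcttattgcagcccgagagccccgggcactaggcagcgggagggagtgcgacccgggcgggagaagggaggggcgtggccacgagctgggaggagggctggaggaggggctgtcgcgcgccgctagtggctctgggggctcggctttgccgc
Csf1: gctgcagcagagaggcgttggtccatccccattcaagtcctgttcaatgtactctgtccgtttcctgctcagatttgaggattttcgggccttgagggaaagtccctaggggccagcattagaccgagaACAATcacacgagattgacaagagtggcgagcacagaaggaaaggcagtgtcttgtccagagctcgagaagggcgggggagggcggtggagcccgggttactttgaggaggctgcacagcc

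Neither the Pdgfra nor the Kit window held a match to either motif, while the Csf1 window held 1 match to ACAAT and none to GATAA. Windows were read for 6 of the 9 genes. Pdgfrb and Csf1r, on chromosome 18, were left out of this reading, and no Pdgfb window was available. Of the other windows read, 1 of the 2 Pdgfa windows held 1 match to ACAAT, and neither the Pdgfc nor the Kitl window held a match. Among all 32851 windows of the same length, 22.6% held GATAA and 27.7% held ACAAT. The Kit window was richer in G and C (70.8%) than those of Pdgfra (54.4%) and Csf1 (56.4%).

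Levels are given as a percent of the 75th percentile of signal on the same array, read at the brightest probe of a gene, and the mean ± SD is over 3 arrays. A log2 difference is given ± SE from a limma fit of all 12 arrays, and a gene is said to have risen or fallen only when the Benjamini-Hochberg adjusted p over all tested probes was under 0.05 and the change was more than 2-fold. Where a probe was not well above background on any array of a group, the fold is a lower bound, written "at least", computed against the lowest signal well above background on each array or the probe's own signal, whichever was higher. Probes differ in their response to RNA, so levels are compared between groups and not between genes. In RNA from whole cultures, fewer cells that use a gene and less RNA per cell cannot be told apart.

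Sox7 was read at 224, 218 and 229% in the Sox7+/- ES cells and at 490, 495 and 688% in the Sox7+/- XEN-like cells. None of the 6 Sox7-/- arrays read it well above background, which bounds the loss as at least 24.7-fold for ES cells and, for XEN-like cells, at least 73.6-fold. Of 8 ES cell markers, Sox2 and Nanog were well above background on every ES array and on no XEN-like array. The other 6 stayed well above background on all XEN-like arrays. Of these, Pou5f1, Esrrb, Zfp42 and Klf2 fell with Dex in both genotypes and Tdgf1 fell only in the null line. Klf4 rose by 1.46 (log2) in the heterozygous line. With Dex, Esrrb was at 15.4 to 18.6% in the heterozygous line and 391 to 435% in the null line. Without Dex these 8 markers summed to 25523 to 26688% in the heterozygous line and 51833 to 55257% in the null line. Esrrb (1.28), Zfp42 (1.09) and Klf4 (1.31) were called higher in the ES cells of the null line, and the others were not called. The part of these marker differences in the values of the 9 genes was not tested. Of 9 endoderm markers, Gata4 rose in both genotypes, by 1.54 ± 0.10 and 1.74 ± 0.10 (log2). Sox17, Foxa2, Col4a1, Lama1 and Lamb1 also rose in both. Dab2 rose only in the null line, and Gata6 and Sparc were not called in either. All 9 were well above background on every array, those without Dex included. Their summed level in Sox7+/- cells was 143820 to 148090% without and 284390 to 316470% with Dex. In Sox7-/- cells it was 117100 to 125490% without and 258870 to 269760% with Dex. None was called between the ES cells of the lines, where the largest difference was -0.71 (Col4a1). One array stood apart from its group. On Sox7+/- XEN-like replicate 3 the median probe lay 0.181 (log2) from the group mean, against 0.112 and 0.118 on the other 2 arrays, Gata6 was at 1071% against 1844 and 1984%, and Pou5f1 was at 177% against 61.1 and 71.3%. Results that rest on this array are given with and without it. The arrays lay on 2 slides. Replicate 1 of the Sox7-/- XEN-like cells shared a slide with the 3 arrays of Sox7-/- ES cells, and the remaining 8 arrays shared the other. The sources of the 3 Sox7+/- ES arrays all carry replicate number 1 in the labels, so they may not be distinct samples. For no group do the labels say that replicates were separate cultures, and p-values then measure only the spread between these samples, which may be technical. The processing moved the share of higher calls over all probes. Of the calls for Dex in Sox7+/- cells 44.1% were higher, against 18.5% when arrays were scaled by spike-in controls. In the deposited table, which is neither scaled nor background-subtracted, the share was 19.6%. For Sox7-/- against Sox7+/- XEN-like cells the shares were 51.4%, 76.6% and 89.9%, and for the genotype difference in response to Dex they were 67.6%, 89.7% and 89.5%. With spike-in scaling the median log2 difference of all tested probes moved from 0.16 to -0.34 for Dex in Sox7+/- cells and from -0.09 to 0.31 for the difference in response. The log2 differences below are relative to the 75th percentile of each array.

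With Dex, the receptors Pdgfra and Kit and the ligand Csf1 rose in Sox7+/- cells and the ligands Pdgfa, Pdgfb and Pdgfc fell. In Sox7-/- cells Pdgfra, Kit, Csf1 and Kitl rose and Pdgfa and Pdgfc fell. The receptor Pdgfrb was called lower in both genotypes, but no XEN-like array read it well above background. It passed the filter through the ES groups alone, so with Dex it could hardly be called higher. Its signal does not show a change past 2-fold in either genotype. With Pdgfrb counted as lower, 3 of the 9 genes were called higher and 4 lower in Sox7+/- cells. There 11% of all probes were called higher and 14% lower. In Sox7-/- cells 4 were called higher and 3 lower, Pdgfrb included, against 14.6% and 14.2% of all probes. The median log2 difference of the 9 genes was -0.40 in Sox7+/- and 0.25 in Sox7-/- cells, against 0.16 and 0.07 for all tested probes. Between the genotypes, 1 gene (Pdgfb) was higher and 1 (Csf1) lower in Sox7-/- XEN-like cells, where 3.86% and 3.65% of all probes were called. In Sox7-/- ES cells none was higher and 2 (Pdgfb and Csf1) were lower, against 1.95% and 6.67%. The genotype difference in response to Dex was called for 2 genes, Pdgfb and Kitl, both with a higher response in Sox7-/- cells, where 6.62% of all probes were called higher and 3.17% lower. The medians of the 9 genes in these last comparisons were 0.39, -0.05 and -0.02, against 0.000562, 0.10 and -0.09 for all tested probes.

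**Figure D1:**
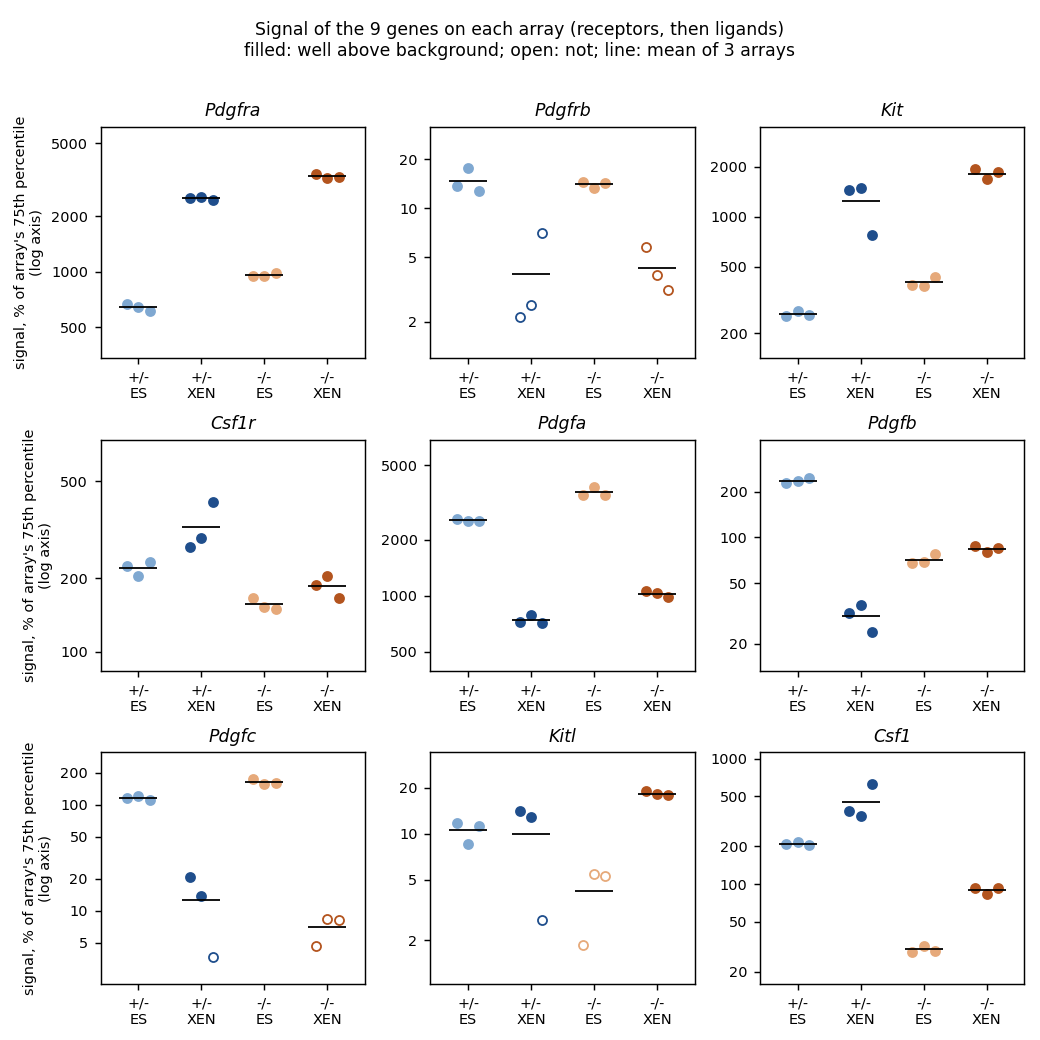
Signal of each of the 9 genes on each array, as a percent of the array's 75th percentile (log axis, with its own range in each panel), for Sox7+/- ES, Sox7+/- XEN-like, Sox7-/- ES and Sox7-/- XEN-like cells. Filled points are well above background, open points are not, and lines are means of 3 arrays. Pdgfra and Kit are higher on every XEN-like array than on any ES array, Pdgfa is lower, and Csf1 is lower on every Sox7-/- array than on any Sox7+/- array.

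Of the receptors, Pdgfra had the least spread between arrays. The arrays carried its probe at 10 spots, whose SD within an array had a median of 0.07 on the log2 scale. The probe lies on chromosome 5 at 75593888 to 75593947 on build mm9. Its signal was 668, 641 and 613% in Sox7+/- ES cells and 2517, 2539 and 2461% in Sox7+/- XEN-like cells. It was 953, 953 and 985% in Sox7-/- ES cells and 3402, 3215 and 3267% in Sox7-/- XEN-like cells. No 2 of the 4 groups overlapped, and their order was Sox7+/- ES, Sox7-/- ES, Sox7+/- XEN-like and Sox7-/- XEN-like. Pdgfra rose 3.91-fold with Dex in Sox7+/- cells (1.97 ± 0.06, adjusted p = 1.6e-09) and 3.42-fold in Sox7-/- cells (1.77, adjusted p = 2.3e-09). Sox7-/- cells had 1.31 times the level of Sox7+/- cells as XEN-like cells (0.39, adjusted p = 0.000807) and 1.50 times as ES cells (0.59, adjusted p = 4.3e-05), both under 2-fold. The Dex responses of the genotypes differed by -0.19 ± 0.08 (adjusted p = 0.113). This difference in response was 0.21 with spike-in scaling and 0.25 in the deposited table, so its sign depends on the scaling.

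Kit, read at 2 spots on chromosome 5 at 76052394 to 76052453 (mm9), rose in both genotypes as well. It was at 255, 271 and 258% in Sox7+/- ES cells and at 392, 383 and 436% in Sox7-/- ES cells. In heterozygous XEN-like cells it was at 1454, 1493 and 783%, and replicate 3, the array that stood apart, was the low one. The null XEN-like cells had it at 1929, 1686 and 1846%, above all Sox7+/- arrays. The rise was 4.57-fold in Sox7+/- cells (2.19 ± 0.21, adjusted p = 6.8e-06) and 4.51-fold in Sox7-/- cells (2.17, adjusted p = 5.8e-06), and the responses differed by -0.02 ± 0.29 (adjusted p = 0.971). Without Sox7+/- XEN-like replicate 3 the response in Sox7+/- cells was 2.49, and the genotype difference among XEN-like cells was 0.30 instead of 0.61, and the responses differed by -0.32 (adjusted p = 0.0443). In the deposited table, which is neither scaled between arrays nor background-subtracted, the genotype difference among XEN-like cells was 1.04 and passed 2-fold. The difference in response was 0.42 there (adjusted p = 0.342).

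Pdgfrb and Csf1r lie on chromosome 18. Pdgfrb, the Pdgf receptor of pericytes and other mesenchymal cells, was dim in all groups. It was at 13.7, 17.6 and 12.7% in Sox7+/- ES cells and at 14.5, 13.3 and 14.4% in Sox7-/- ES cells. It was not well above background on any XEN-like array, with 2.15, 2.53 and 7.08% in Sox7+/- and 5.80, 3.90 and 3.15% in Sox7-/- cells. The limma differences with Dex were -2.11 ± 0.39 (adjusted p = 0.000926) and -1.76 (adjusted p = 0.00253), but the signal bounds the fall only as at least 1.55-fold for the heterozygous line and at least 1.88-fold for the null line. Under normexp background correction the differences were -0.36 and -0.49, and in the deposited table -0.91 and -0.61, all under 2-fold. With the slide as a block the fall in Sox7-/- cells was -1.28 with an adjusted p of 0.0749 (limma). Without Sox7+/- XEN-like replicate 3 the Dex difference in Sox7+/- cells was -2.64, and the genotype difference among XEN-like cells was 0.83 (adjusted p = 0.0223) instead of 0.30. Of 8 pericyte and fibroblast markers, Rgs5 and Dcn were not well above background on any array, and Cspg4 and Prrx1 were on 1 array each. Thy1 and Col1a1 fell with Dex in both genotypes and were not well above background on any XEN-like array, and Acta2 fell by 3.57 (log2) in Sox7+/- cells and differed by -0.63 in Sox7-/- cells. Twist1, well above background on all 12 arrays, went the other way, with a difference of 0.84 in Sox7+/- cells (adjusted p = 0.00145) and a rise of 1.23 in Sox7-/- cells. The summed level of the list went from 1412–1640% to 118–248% in Sox7+/- cells and from 629–688% to 212–265% in Sox7-/- cells. Most of it came from Acta2, Thy1 and Col1a1 in ES cells and from Acta2 and Twist1 in XEN-like cells. The part of these markers in the Pdgfrb values was not tested.

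Csf1r did not pass 2-fold in any comparison. It was at 225, 205 and 233% in Sox7+/- ES, at 269, 294 and 412% in Sox7+/- XEN-like, at 167, 153 and 150% in Sox7-/- ES and at 189, 204 and 165% in Sox7-/- XEN-like cells. The Sox7-/- groups overlapped each other, and both lay below both Sox7+/- groups. The 412% was on Sox7+/- XEN-like replicate 3, the array that stood apart, so the XEN-like difference rests partly on it. The difference between the genotypes was -0.78 ± 0.15 in XEN-like cells (adjusted p = 0.00307) and -0.50 in ES cells (adjusted p = 0.0204). In the deposited table these were -0.28 (adjusted p = 0.184) and -0.41 (adjusted p = 0.0853). The adjusted p of the ES difference was 0.255 with the slide as a block and 0.17 with the Sox7+/- ES arrays as 1 sample. The Dex difference was 0.53 in Sox7+/- cells (adjusted p = 0.00974) but 0.35 without replicate 3 and 0.04 with spike-in scaling, and it was 0.25 in Sox7-/- cells (adjusted p = 0.168). A second Csf1r probe gave smaller genotype differences of -0.33 (adjusted p = 0.0535) and -0.11 (adjusted p = 0.486), and the remaining probe was too dim to be tested. Of 8 macrophage and blood markers, Ptprc, Spi1 and Cx3cr1 were not well above background on any array and Tyrobp was on 1 array. Emr1, the F4/80 antigen, rose with Dex by 2.54 and 2.88 (log2) in Sox7+/- and Sox7-/- cells, and Fcer1g, an Fc receptor subunit, by 1.60 and 2.59. In Sox7-/- ES cells Emr1 was not well above background on any array and Fcer1g was on only 1, so the sizes of these Sox7-/- rises are uncertain. Cd68 rose by 1.66 in Sox7-/- cells and differed by -0.49 in Sox7+/- cells, and Itgam, which made up the largest part of the summed level on every array, was not called in either. The summed level of the 8 macrophage and blood markers was 1191–1515% in Sox7+/- ES, 1690–2684% in Sox7+/- XEN-like, 909–973% in Sox7-/- ES and 1470–1579% in Sox7-/- XEN-like cells, and its highest value was on Sox7+/- XEN-like replicate 3, where Itgam was at 2378% against 1330 and 1325%. The part of these markers in the Csf1r and Csf1 values was not tested.

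**Figure D2:**
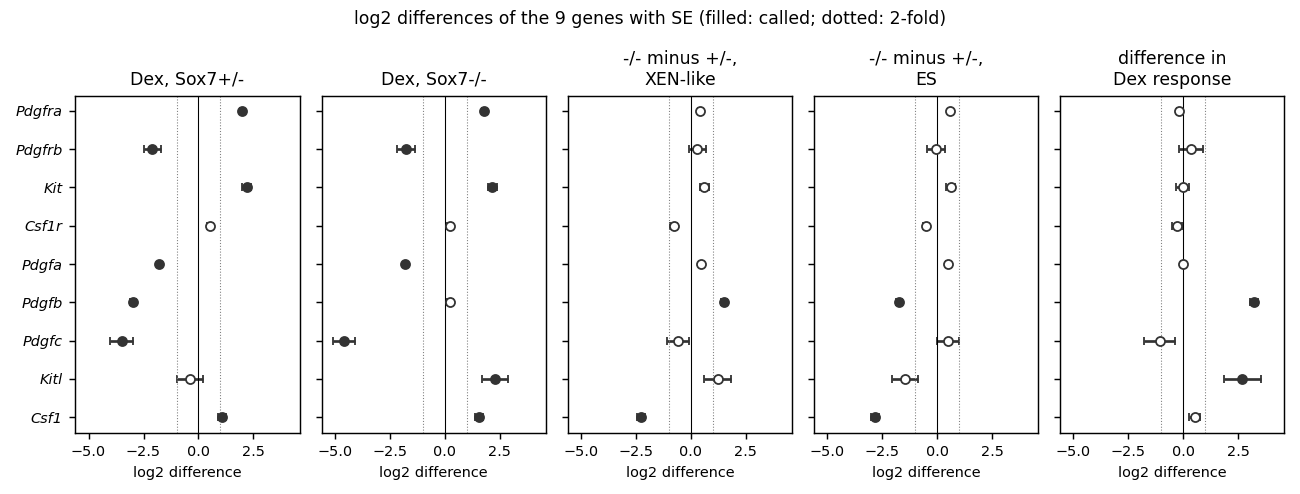
Log2 differences of the 9 genes in the 5 comparisons, with SE bars. Filled points passed both the adjusted p and 2-fold (dotted lines at -1 and 1). Pdgfb and Kitl are the genes with a called difference in the Dex response, at 3.22 and 2.68.

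Among the ligands, Pdgfa fell with Dex by nearly the same amount in both genotypes. Its signal was 2589, 2520 and 2524% in Sox7+/- ES cells and 727, 787 and 712% in Sox7+/- XEN-like cells. It was 3454, 3818 and 3469% in Sox7-/- ES cells and 1060, 1029 and 986% in Sox7-/- XEN-like cells, and the 4 groups did not overlap. The ES cells had 3.43 times (-1.78 ± 0.07, adjusted p = 8.3e-09) and 3.49 times (-1.80, adjusted p = 5.5e-09) the level of the XEN-like cells. Sox7-/- cells were higher than Sox7+/- cells by 0.47 as XEN-like (adjusted p = 0.000697) and by 0.49 as ES cells (adjusted p = 0.000329), under 2-fold in both. The second Pdgfa probe, which overlaps the first on chromosome 5 (139452925 to 139452984, mm9), gave -1.78 and -1.73 for Dex. Pdgfra and Pdgfa thus had the opposite direction with Dex and the same direction between the genotypes.

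Pdgfb was the ligand whose response differed most between the genotypes. It was at 229, 235 and 245% in Sox7+/- ES cells and at 31.6, 36.0 and 23.8% in Sox7+/- XEN-like cells. The null line had it at 68.0, 69.1 and 77.5% without and at 88.4, 79.8 and 85.2% with Dex. All Sox7-/- arrays lay between the Sox7+/- XEN-like and the Sox7+/- ES arrays. With Dex, Pdgfb fell 7.87-fold in Sox7+/- cells (-2.98 ± 0.13, adjusted p = 2.5e-08), whereas the difference was 0.24 in Sox7-/- cells (adjusted p = 0.135), and the responses differed by 3.22 ± 0.19 (adjusted p = 1.8e-06). Before Dex, Pdgfb was 3.31-fold lower in the null line (-1.73, adjusted p = 7.3e-06). With Dex it was 2.81-fold higher in the null line (1.49, adjusted p = 2.9e-05). Without Sox7+/- XEN-like replicate 3 the difference in response was 3.05, and with the slide as a block it was 3.28. Within the slide that held both XEN-like groups, Sox7-/- XEN-like cells were higher by 1.46 (adjusted p = 0.00215). The brightest probe lies on chromosome 15 at 79826376 to 79826435 (mm9), and the second Pdgfb probe was well above background on 1 of the 12 arrays and was not tested.

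Pdgfc, a Pdgf ligand that is secreted latent and cut before it binds, fell with Dex in both genotypes. It was at 114, 121 and 112% in Sox7+/- ES and at 173, 158 and 161% in Sox7-/- ES cells. It was at 20.7 and 13.9% on the first and second Sox7+/- XEN-like arrays and not well above background on replicate 3 (3.71%) or on the Sox7-/- XEN-like arrays (4.65, 8.40 and 8.28%). The differences with Dex were -3.50 ± 0.51 in Sox7+/- cells (adjusted p = 0.000173) and -4.58 in Sox7-/- cells (adjusted p = 2.0e-05), where the fall was at least 19.3-fold. Without Sox7+/- XEN-like replicate 3 the fall in Sox7+/- cells was -2.77. Under normexp background correction the falls were smaller, at -1.82 and -2.71. The difference between XEN-like cells was -0.58 (adjusted p = 0.408). Without Sox7+/- XEN-like replicate 3 it was -1.31 (adjusted p = 0.00388) and the difference in response was -1.81 (adjusted p = 0.00368), both past the thresholds, so whether Pdgfc was lower in Sox7-/- XEN-like cells turned on that 1 array.

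Kitl was dim, and its calls were the least stable of the 9 genes. It was at 11.8, 8.51 and 11.3% in Sox7+/- ES cells and not well above background in Sox7-/- ES cells (1.87, 5.41 and 5.30%). With Dex it was at 14.1, 12.9 and 2.72% in Sox7+/- cells, the last on replicate 3 and not well above background, and at 19.0, 18.1 and 17.9% in Sox7-/- cells. Kitl rose with Dex in Sox7-/- cells by 2.29 ± 0.59 (adjusted p = 0.00631), at least 2.03-fold, and the difference in Sox7+/- cells was -0.40 (adjusted p = 0.58). This rise was under 2-fold with normexp background correction (0.68) and in the deposited table (0.77), and its adjusted p was 0.0515 with the slide as a block. The responses differed by 2.68 ± 0.84 (adjusted p = 0.0388). Without Sox7+/- XEN-like replicate 3 the response of Sox7+/- cells was 0.37 and the difference in response 1.91 (adjusted p = 0.0236). With the 3 Sox7+/- ES arrays counted as 1 sample the adjusted p of the difference in response was 0.177, with the slide as a block it was 0.121, and with normexp background correction the difference was 0.56. The call was also lost when any 1 of the 3 Sox7+/- ES arrays, the 3 Sox7-/- XEN-like arrays or Sox7-/- ES replicate 1 was left out, with adjusted p-values of 0.0591 to 0.0810. Over all alternatives this adjusted p lay between 0.00295 and 0.177. Between ES cells Kitl differed by -1.47 (adjusted p = 0.0677). This difference was called without Sox7+/- XEN-like replicate 3 (adjusted p = 0.00725), in a limma fit of only the groups compared (adjusted p = 0.0297) and with an intensity trend (adjusted p = 0.0495). Between XEN-like cells it was 1.21 (adjusted p = 0.141), and 0.44 without replicate 3 of the Sox7+/- cells.

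Of the 9 genes, Csf1 had the largest differences between the genotypes within ES and within XEN-like cells. Its brightest probe, printed at 10 spots on chromosome 3 at 107544333 to 107544392 (mm9), was at 208, 216 and 207% in Sox7+/- ES cells and at 380, 349 and 624% in Sox7+/- XEN-like cells. The null line had it at 29.0, 32.4 and 29.1% without and at 93.2, 83.3 and 93.0% with Dex. The highest Sox7-/- array was thus below the lowest Sox7+/- array. The null line had 6.98-fold less Csf1 as ES cells (-2.80 ± 0.18, adjusted p = 2.1e-06) and 4.86-fold less as XEN-like cells (-2.28, adjusted p = 1.3e-05). It rose with Dex 2.98-fold in Sox7-/- cells (1.57, adjusted p = 2.4e-05) and 2.07-fold in Sox7+/- cells (1.05, adjusted p = 0.000516). The rise in Sox7+/- cells was 0.79 without replicate 3 (adjusted p = 1.9e-05), under 2-fold, and 0.56 to 0.96 with the other scalings and background corrections. The responses differed by 0.52 ± 0.25 (adjusted p = 0.157). Without Sox7+/- XEN-like replicate 3 they differed by 0.78 (adjusted p = 0.000596), and with spike-in scaling by 0.92 (adjusted p = 0.00437), both under 2-fold. The other 2 Csf1 probes start at 107548521 and 107548550 on the same chromosome and overlap each other, and neither was well above background in Sox7-/- ES cells. They gave the same calls, with differences of -2.15 and -2.70 between ES cells and -1.99 and -1.72 between XEN-like cells.

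Slide and genotype coincide for the ES cells. With the slide as a block, which then rests on Sox7-/- XEN-like replicate 1 to tie the slides, the ES differences were -2.89 for Csf1 (adjusted p = 0.000939) and -1.83 for Pdgfb (adjusted p = 0.00213). Within the slide that held both XEN-like groups the Csf1 difference was -2.31 (adjusted p = 0.00136). The other slide held the 3 Sox7-/- ES arrays and a single Sox7-/- XEN-like array. Within it the Dex differences, given as values with no test, were 1.82 for Pdgfra, 2.26 for Kit, 0.27 for Csf1r, 1.63 for Csf1, 2.34 for Kitl, 0.31 for Pdgfb and -1.76 for Pdgfa. Those of Pdgfc (-5.14) and Pdgfrb (-1.28) rest on a XEN-like signal that was not well above background.

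**Figure D3:**
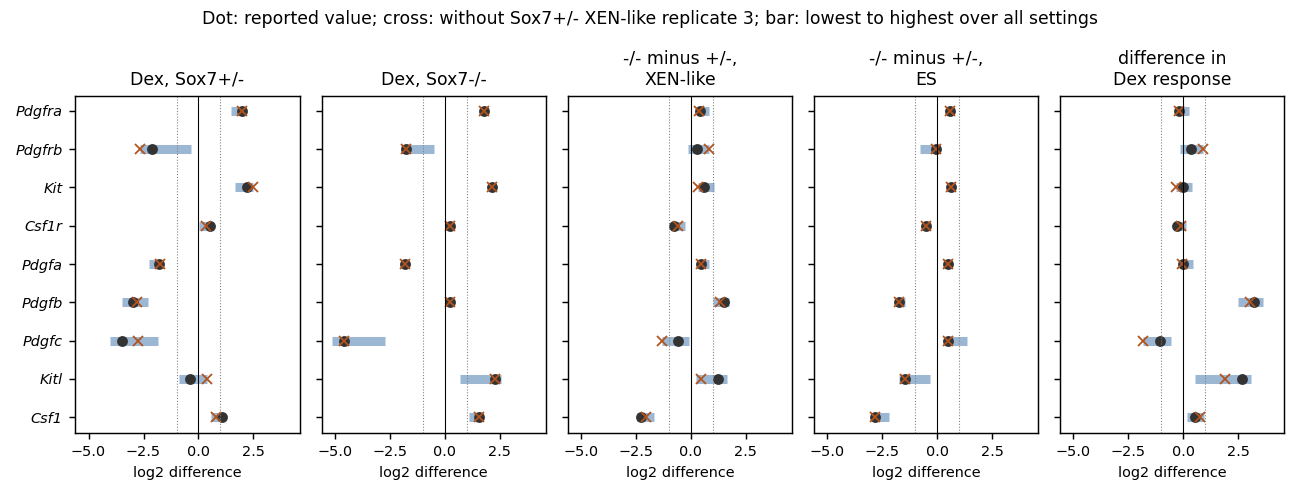
Log2 differences of the 9 genes as reported (dots), without Sox7+/- XEN-like replicate 3 (crosses), and the lowest to highest value over all processing settings (bars), in the 5 comparisons. Bars for Pdgfra, Kit, Pdgfa and Csf1 stay on 1 side of 0 in both Dex responses, while the bar for Kitl in Sox7+/- cells crosses 0.

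Other genes of these pathways were read from lists by role. Of 5 other class III receptor genes and ligands, Pdgfd, a further Pdgf ligand, and Flt3, the receptor of Flt3l, were too dim to be tested. Pdgfrl, a Pdgf receptor-like protein without a kinase, was at 193, 205 and 194% in Sox7+/- ES and at 114, 112 and 86.5% in Sox7+/- XEN-like cells, against 118–125% and 113–129% in Sox7-/- ES and XEN-like cells. Its difference with Dex was -0.93 ± 0.11 in Sox7+/- cells (adjusted p = 2.9e-05) and -0.04 in Sox7-/- cells, and the difference in response was 0.89 (adjusted p = 0.00198), under 2-fold. Flt3l differed by -0.42 and -0.04 with Dex. Il34, the other ligand of Csf1r, was called lower with Dex in Sox7+/- cells (-1.10, adjusted p = 0.0177), where the fall was at least 1.61-fold and 1 of the 3 genes tested was called (14% of all probes were called lower), and it differed by -0.90 in Sox7-/- cells.

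Of the 9 tested genes for co-receptors and ligand processing, 5 were higher and 1 lower with Dex in Sox7+/- cells, and 4 were higher and 1 lower in Sox7-/- cells. Of all probes, 11% were called higher and 14% lower in Sox7+/- and 14.6% and 14.2% in Sox7-/- cells. The median log2 differences were 1.66 and 0.68. Nrp1, a neuropilin co-receptor, rose at least 13.1-fold in the heterozygous line and at least 6.80-fold in the null line. Plat, the protease tPA that activates Pdgfc, rose 8.16-fold and 15.1-fold and was 2.72-fold lower in the ES cells of the null line (-1.44). Nrp2 rose 5.43-fold and 6.51-fold. Lrp1, an endocytic receptor and partner of Pdgfrb, fell 5.35-fold in Sox7-/- and 4.10-fold in Sox7+/- cells. Pcsk5, a proprotein convertase, was 3.34-fold lower in the XEN-like cells of the null line (-1.74) and was seen above background on only 1 of the 3 Sox7-/- arrays. Between the genotypes, 1 of these 9 genes was lower in XEN-like cells (3.65% of all probes) and 1 in ES cells (6.67%). None was higher in either.

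Of 35 tested adaptors and signal relays, 5 were higher and 3 lower with Dex in Sox7+/- cells and 7 higher and 4 lower in Sox7-/- cells, with medians of 0.31 and 0.20. Over all probes the shares were 11% higher and 14% lower in Sox7+/- and 14.6% and 14.2% in Sox7-/- cells, so these counts lay near the background or, for the higher calls in Sox7-/- cells, somewhat above it. Plcg2, a phospholipase C, fell 8.44-fold in Sox7+/- and 6.43-fold in Sox7-/- cells. Pik3cd fell with Dex by 1.68 in the heterozygous line and by 2.05 in the null line, where 2 of the 3 XEN-like arrays read it well above background. Stat5b, a transcription factor, rose with Dex by 1.60 in the heterozygous line and 1.77 in the null line, and the kinase Akt1 by 1.35 and 2.08. Neither Stat5b nor Akt1 was called for the difference in response. Fyn, a Src family kinase, was at background on all 3 arrays of XEN-like cells of the null line. Against the heterozygous XEN-like cells this bounds the loss as at least 2.50-fold, and its Dex responses differed by -2.16. Pik3r1, the regulatory subunit of PI 3-kinase, had Dex differences of 0.60 in the heterozygous line and 1.77 in the null line, which differed by 1.17. The adaptor Gab1 fell by 1.30 with Dex in Sox7+/- cells, differed by -0.69 in Sox7-/- cells and was higher by 1.17 in Sox7-/- XEN-like cells. Of the 35 genes, 1 was higher and 1 lower between XEN-like cells (3.86% and 3.65% of all probes) and none was called between ES cells. For the difference in response 1 was higher and 1 lower (6.62% and 3.17%).

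Of 15 tested negative regulators, 1 was higher and 4 lower with Dex in Sox7+/- cells and none higher and 2 lower in Sox7-/- cells, with medians of -0.32 and -0.29. The background in Sox7+/- cells was 11% higher and 14% lower calls, and the 2 lower genes in Sox7-/- cells are about the share of all probes called lower there (14.2%, with 14.6% called higher). Dok2, an adaptor that restrains Ras signalling in blood cells, fell 44.0-fold in Sox7+/- and 33.9-fold in Sox7-/- cells. Inpp5d (SHIP1), a lipid phosphatase, fell 10.3-fold and 39.7-fold. It was 2.81-fold lower in the XEN-like cells of the null line (-1.49), and its responses differed by -1.95. It was the only 1 of the 15 genes called in these comparisons, where 3.65% and 3.17% of all probes were called lower. Ptprj, a receptor phosphatase, fell by 1.47 on the log2 scale in Sox7+/- cells and differed by -0.90 in Sox7-/- cells. With normexp background correction, the Dex responses of Il34, Pcsk5 and Ptprj in Sox7+/- cells and of Fyn in Sox7-/- cells were under 2-fold. So were the differences of Pcsk5, Gab1, Fyn and Inpp5d between XEN-like cells and the differences in response of Fyn and Pik3r1.

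**Figure D4:**
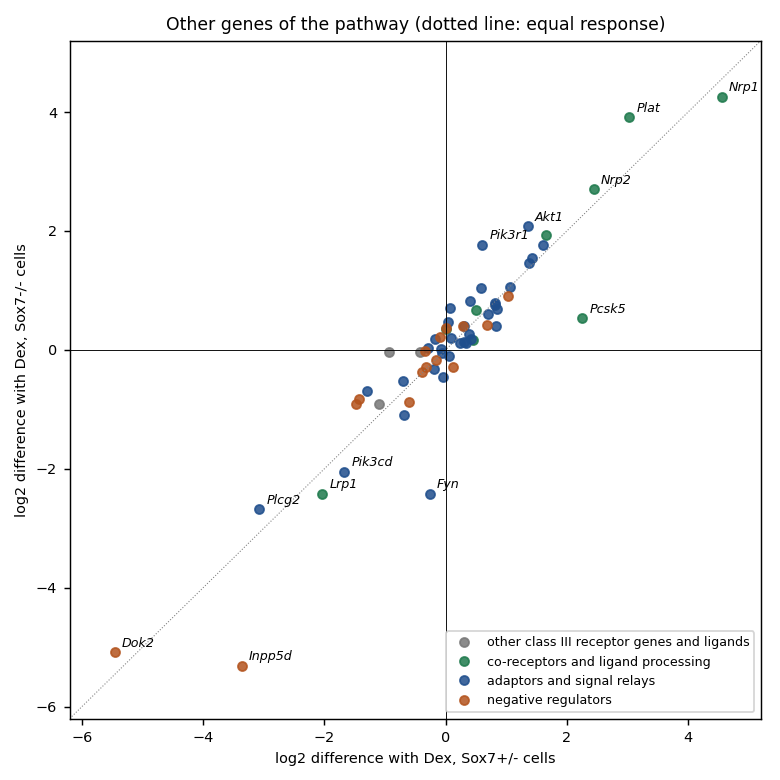
Log2 difference with Dex in Sox7+/- cells (horizontal) and Sox7-/- cells (vertical) of the tested genes of the 4 pathway lists, 1 point a gene. Nrp1, Plat and Nrp2 lie at the top right, Dok2, Inpp5d and Plcg2 at the bottom left, and Pcsk5 and Fyn lie away from the line of equal response.

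The Pdgfra and Kit probes are 458.5 kb apart on chromosome 5, and Kdr, a receptor of the Vegf family, is the next tested gene beyond Kit. Kdr differed by 0.40 and 0.20 with Dex and was not called. On the other side of Pdgfra, Chic2 rose 2.03-fold in Sox7+/- cells, though less than 2-fold with normexp background correction, and differed by 0.25 in Sox7-/- cells. Gsx2, a homeobox gene whose probe lies 120.4 kb from that of Pdgfra, was at 25.9, 28.7 and 29.6% in Sox7-/- ES cells and not well above background on any array of the other 3 groups. These ES cells had at least 4.51-fold more signal than the heterozygous ES cells and at least 3.74-fold more than the same line with Dex. Farther from Kit, Pdcl2 fell at least 7.79-fold and at least 12.1-fold with Dex and Tmem165 rose 2.82-fold in Sox7-/- cells and differed by 0.94 in Sox7+/- cells. Nmu, which encodes the peptide neuromedin U, was dim and called lower with Dex in both genotypes (-1.55 and -2.55), which the signal bounds as at least 1.77-fold in Sox7-/- cells and not at all in Sox7+/- cells. Gm7467 was called lower in the XEN-like cells of the null line (-1.19). The other tested neighbours, Rasl11b, Scfd2, Fip1l1, Lnx1, Gm6116, Srd5a3, Clock and Exoc1, were not called in any comparison, with Dex differences from -0.98 (Lnx1) to 0.93 (Srd5a3), and BF166984 and Gm7271 were too dim to be tested.

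**Figure D5:**
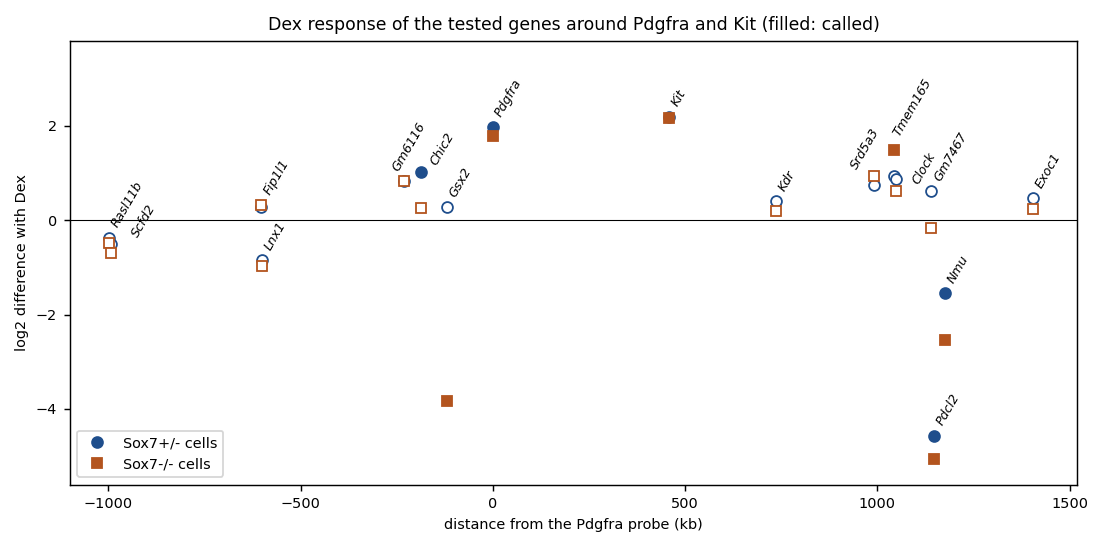
Log2 difference with Dex in Sox7+/- cells (circles) and Sox7-/- cells (squares) of the tested named genes within 1 Mb of the Pdgfra or Kit probe, by distance from the Pdgfra probe in kb. Filled symbols were called. Pdgfra and Kit are called higher in both genotypes, and Kdr, at 736.5 kb, is not called.

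Among 14411 named genes tested, the profile over the 12 arrays nearest to that of Pdgfra was that of 3110002H16Rik, with a root mean square difference of 0.118 (log2, each profile centred on its own mean). Sh3gl3, Lrig1, Gm1673 and Arl4d followed, at 0.132 to 0.173. Lrig1, a membrane protein that restrains receptor tyrosine kinases, differed by 1.83 and 1.65 with Dex. The profile nearest to that of Kit was that of Entpd5, at 0.190, followed by Lcp1, Armcx3, Ghr and Mospd1, at 0.229 to 0.260. The points share the arrays and the large step between ES and XEN-like cells, so these values are a description.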

How the data were processed

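The authors labelled RNA of 12 samples, 3 for each of 4 groups, with Cy3 and used 1 Agilent mouse 8x60K array for each. The intensity values were deposited as Agilent Feature Extraction output (version 10.7.3.1), in which the processed signal is background-subtracted and detrended but not scaled between arrays. The deposited table of the series holds linear intensity values, all within 0.498% of the mean spot signal of the same array. It is thus neither background-subtracted nor scaled between arrays. Positions are those of the array files (mm9).

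Signal was read as log2 relative to the 75th percentile of each array (252 to 416 intensity units), outlier-flagged spots were left out, and spots of a probe were averaged. A probe was kept if every array of some group read it well above background (25940 of 55681 probes). A single limma fit (3.58.1, R 4.3.3) of the 12 arrays gave 5 comparisons with Benjamini-Hochberg adjustment. A gene was read by its brightest probe. No spot was saturated, and 41.7% to 52.3% of spots on an array exceeded background. Precision is limited by having 3 arrays a group.

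The 9 genes and the lists were chosen with earlier results of these data known. The text names all 9 genes, up to 3 called genes for each list and comparison, all genes of the first list, neighbours within 1 Mb of Pdgfra or Kit and the 5 nearest profiles. The alternatives were normexp background correction (offset 50), other scalings (quantile, median of probes above background, 7 spike-in controls) and the deposited table, which changes both scaling and background. Other filters, the mean of a gene's probes, an intensity trend and only the groups compared were also used. The rest were replicate and slide blocks, the Sox7+/- ES arrays as 1 sample and each array left out. The procedure was tested on simulated data. Promoter windows came from RefSeq on GRCm38.p6.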

Additional observations from a re-analysis of the deposited data

Results flagged for a closer look

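The Dex response of Pdgfb differed between the genotypes by the test of the difference itself, by 3.22 on the log2 scale (limma, adjusted p = 1.8e-06), with a fall on all 3 Sox7+/- XEN-like arrays and no called change in Sox7-/- cells. The Dex response of Kitl differed by 2.68 (adjusted p = 0.0388), with adjusted p-values over the alternatives that reach 0.177, and Kitl was not well above background in Sox7-/- ES cells.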

How the results depend on the processing

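Across the alternatives, 1056 of 1119 log2 differences of the 9 genes kept their direction and their side of the thresholds, 27 lost a call, 6 gained one and 30 changed sign, and none of those that changed sign had been called. The cause of these changes was not tested. The sign changes were in the genotype difference in response to Dex for Pdgfra (0.21 with spike-in scaling, 0.25 in the deposited table), Pdgfrb (-0.13 with normexp), Pdgfa (0.0858 with normexp, 0.11 with quantile normalization, 0.38 with spike-ins, 0.43 in the deposited table, 0.024 with the slide block, 0.0146 with the mean of its probes, and -0.0533 to 0.0225 with 1 array left out), Kit (0.0739 with normexp, 0.38 with spike-ins, 0.42 in the deposited table, 0.0679 with the slide block, and -0.32 to 0.14 with 1 array left out) and Csf1r (0.11 with spike-ins, 0.13 in the deposited table). They were also in Kitl with Dex in Sox7+/- cells (0.13 with normexp, and -0.81 to 0.37 with 1 array left out), in Pdgfrb between XEN-like cells (-0.11 with normexp, and -0.0302 to 0.83 with 1 array left out) and in Pdgfrb between ES cells (0.0188 with normexp, 0.11 with quantile normalization, 0.0241 in the deposited table, and -0.14 to 0.0908 with 1 array left out). The number of genes called with a higher Dex response in Sox7-/- cells went from 2 to 1, with the loss of Kitl, under normexp, quantile normalization, the filter on all arrays, the slide block and the Sox7+/- ES arrays as 1 sample, and was 1 to 2 with 1 array left out. The number with a lower response was 0 to 1 with 1 array left out. With the filter on all 12 arrays, which drops Pdgfrb, Pdgfc and Kitl, 2 genes were lower with Dex in Sox7+/- and 1 in Sox7-/- cells. Between XEN-like cells 2 genes were higher in the deposited table, and 1 to 2 were lower with 1 array left out. Same-numbered arrays of different groups had correlations of their deviations from -0.0508 to 0.126, so the numbers were not taken as pairs. With a replicate block the difference in response of Kitl was 2.68 with an adjusted p of 0.062 (limma), 1 gene was called higher, and no other call for the 9 genes changed. Dim signal limits Pdgfrb, Kitl and Pdgfc.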
